A study of Arabidopsis thaliana with 3 samples.

Results

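miR395 is a plant microRNA (miRNA) family, and its 6 Arabidopsis thaliana members, ath-miR395a to ath-miR395f, were taken by name from the deposited counts of small RNA reads. They are 6 of the 328 miRNAs listed for the cdf2 and Col libraries and 6 of the 338 listed for the dcl1-9 library. All 6 were listed for every library, with 0 reads for ath-miR395a, d and e in dcl1-9. Small RNAs were sequenced from 22-day-old seedlings of the Col ecotype, grown in soil with 16 h of light and 8 h of dark and without treatment. There was 1 library for each of 3 genotypes, which were the cdf2 mutant, the dcl1-9 mutant and the wild type (Col). CDF2 is a DOF transcription factor, and the study asked how its loss affects the accumulation of miRNAs. DCL1 is the enzyme that cuts miRNA precursors in the nucleus, and the dcl1-9 allele encodes a form that lacks double-stranded RNA-binding domains at its C-terminal end.

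miR395 is known for its part in sulfur nutrition. It accumulates when sulfate is scarce, and it directs the cleavage of mRNAs for ATP sulfurylases (APS1, APS3 and APS4), which activate sulfate, and for the sulfate transporter SULTR2;1 (also named AST68). In plants, a single-stranded miRNA in an ARGONAUTE protein pairs with its target along nearly its whole length, and its precursor is a hairpin from which DCL1 releases the duplex of miRNA and opposite strand.

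The family has 2 mature sequences, which are shown because the counts fall into the same 2 groups. They are 21 bases long and come from RefSeq (TAIR10.1), with the seed (bases 2 to 8 from the 5′ end) in capitals.
miR395a, d and e: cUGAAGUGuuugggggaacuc
miR395b, c and f: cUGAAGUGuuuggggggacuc
Both variants have the same seed, and they differ at 1 position, A17G, counted from 1 at the 5′ end of the miRNA with the base of miR395a, d and e first. Each mature sequence had 3 exact copies in the genome, 1 for each of its members, so that a read of 21 bases cannot be assigned to 1 of the 3 genes.

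All 6 genes are on chromosome 1, in 2 clusters of 3 (TAIR10.1 coordinates). In the first cluster, which spans 3984 bp, MIR395a lies on the minus strand at chr1:9363196-9363288, MIR395b on the plus strand at chr1:9364471-9364570 and MIR395c on the plus strand at chr1:9367080-9367179. In the second, which spans 3991 bp, MIR395d lies on the minus strand at chr1:26269979-26270078, MIR395e on the minus strand at chr1:26272776-26272870 and MIR395f on the plus strand at chr1:26273858-26273969. The clusters are 16902799 bp apart. No precursor overlaps another annotated gene, and the nearest protein-coding gene is between 179 bp (AT1G26976, from MIR395b) and 1470 bp (also AT1G26976, from MIR395c) away. Both variants occur in both clusters, and in these 6 genes the strand follows the variant, with a, d and e on the minus strand and b, c and f on the plus strand.

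**Figure D1:**
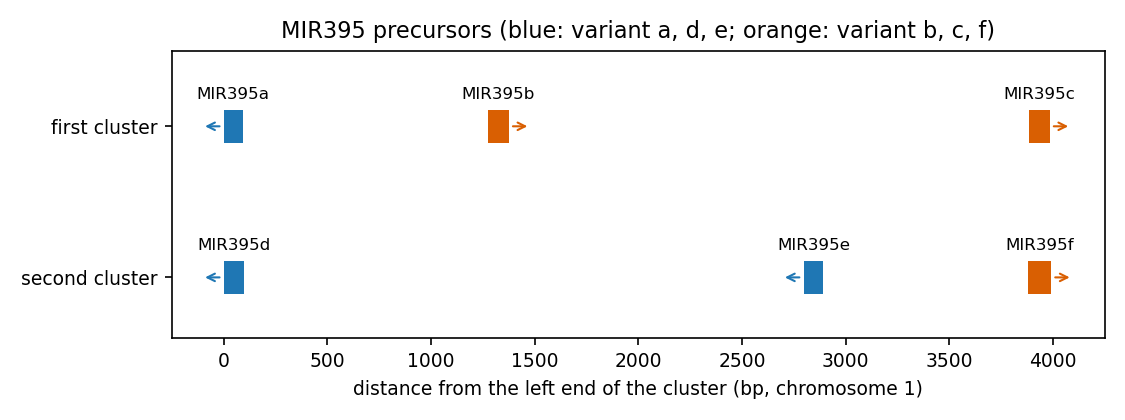
Position of the 6 MIR395 precursors within their cluster, in bp from the left end of the cluster, with arrows for the strand. Both clusters are close to 4 kb long (3984 and 3991 bp), and the genes of variant a, d, e (blue) point left where those of b, c, f (orange) point right.

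The precursors are 93 to 112 bases long and carry the mature sequence on the 3′ arm. The precursors of MIR395a and MIR395b are shown as an example of each variant, with the mature sequence in capitals.
MIR395a: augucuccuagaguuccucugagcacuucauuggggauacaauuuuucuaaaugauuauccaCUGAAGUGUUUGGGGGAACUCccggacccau
MIR395b: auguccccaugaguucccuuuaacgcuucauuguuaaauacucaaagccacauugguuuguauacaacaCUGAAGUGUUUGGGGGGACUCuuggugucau
The folding energy that was computed for the annotated hairpins lay between -38.60 kcal/mol (MIR395e) and -53.10 kcal/mol (MIR395f). Outside the mature part the hairpins diverge, with an identity over the whole precursor of 72.4% to 97% between members with the same mature sequence and of 62.1% to 70.4% between members with different ones. MIR395b and MIR395c, neighbours in the first cluster, were the most alike (97%). Among a, d and e, MIR395a was closer to MIR395e of the other cluster (86.3%) than to MIR395d (73.3%).

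ath-miR395a and ath-miR395d each had 41 reads in the cdf2 library, 0 in the dcl1-9 library and 25 in the Col library. ath-miR395e had 40 reads in cdf2, 0 in dcl1-9 and 25 in Col. ath-miR395b, ath-miR395c and ath-miR395f each had 69 reads in cdf2, 3 in dcl1-9 and 37 in Col. Members with the same mature sequence thus had equal counts, except for 1 read of ath-miR395e in cdf2, and the 6 counts stand for only 2 measurements. The value of a variant is therefore that of the member with the most reads and not a sum.

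The member with 1 read fewer differs from the others of its variant close to the mature sequence, which is shown with 4 bases on either side and the mature part in capitals.
MIR395a: uccaCUGAAGUGUUUGGGGGAACUCccgg
MIR395d: uccaCUGAAGUGUUUGGGGGAACUCccga
MIR395e: ucuaCUGAAGUGUUUGGGGGAACUCccgg
A read that runs at least 2 bases past the 5′ end of the mature sequence would match MIR395a and MIR395d but not MIR395e. Whether the 1 read was of this kind was not tested, since the files hold counts and not reads.

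The counts of all listed miRNAs summed to 5248526 in cdf2, 378685 in dcl1-9 and 8833288 in Col, where a shared read can count several times. Counts were scaled to reads per 1000000 of the total reads the study states for each library (RPM), so that 1 read is 0.0810 RPM in cdf2, 0.0764 RPM in dcl1-9 and 0.0870 RPM in Col. With 1 library per genotype no difference has a replicate check. All intervals are exact 95% intervals for counting error only, and reads without molecular identifiers are not independent molecules. The summed miRNA counts came to 42.5% of the total reads in cdf2, 2.89% in dcl1-9 and 76.9% in Col. In whole seedlings, fewer cells that make a miRNA and less miRNA per cell cannot be told apart, and these small RNA libraries hold no measure of mRNAs, those of CDF2 and DCL1 included.

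The level of miR395a and miR395d was 3.32 RPM (95% interval 2.38 to 4.5) in cdf2, 0 RPM in dcl1-9 and 2.18 RPM (1.41 to 3.21) in Col. For miR395e the level in cdf2 was 3.24 RPM (2.31 to 4.41). The level of miR395b, miR395c and miR395f was 5.59 RPM (4.35 to 7.07) in cdf2, 0.229 RPM (0.0473 to 0.67) in dcl1-9 and 3.22 RPM (2.27 to 4.44) in Col. By total reads both variants had their highest value in cdf2 and their lowest in dcl1-9 (by genome-matched reads the values in cdf2 were 0.869 times those in Col for miR395a and d and 0.988 times for b, c and f), and the counting intervals of cdf2 and Col overlapped for both, slightly for b, c and f. The 0 reads of miR395a, d and e in dcl1-9 have an exact upper limit of 0.282 RPM, and the floor of 3 reads used for their fold changes is 0.229 RPM, which is also the level measured there for b, c and f.

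**Figure D2:**
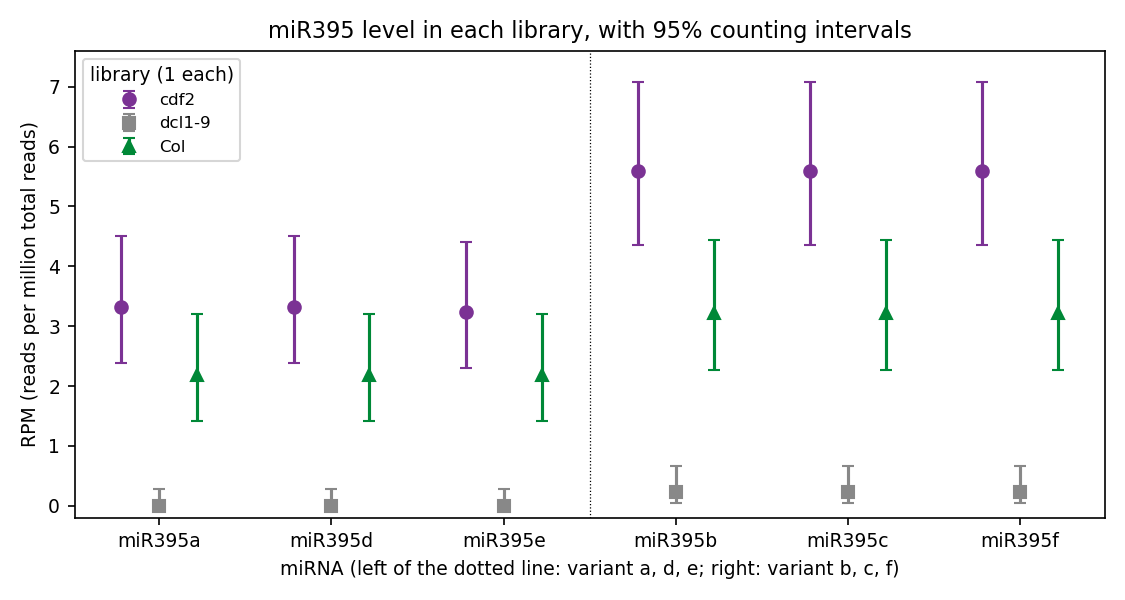
Level of the 6 members in RPM (scaled by total reads) in the cdf2, dcl1-9 and Col libraries (1 library each), with exact 95% intervals for counting error. The members to the right of the dotted line (b, c and f) lie at 5.59, 0.229 and 3.22 RPM and those to its left at 3.24 to 3.32, 0 and 2.18 RPM in cdf2, dcl1-9 and Col, and within a variant the points repeat 1 measurement.

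miR395 was a family of middling to low abundance in these soil-grown seedlings. miR395b, with the most reads in the family, was number 133 of 328 miRNAs in cdf2, number 99 of 338 in dcl1-9 and number 153 of 328 in Col. When each family was represented by its member with the most reads, miR395 was number 67 of the 148 families with reads in cdf2, number 48 of 85 in dcl1-9 and number 77 of 151 in Col. Relative to the summed miRNA reads alone, miR395b made up 13.1 parts per 1000000 (ppm) in cdf2, 7.92 ppm in dcl1-9 and 4.19 ppm in Col. The share in dcl1-9 rests on 3 reads, and on this scale its ratio to Col was 1.89 with an interval of 0.373 to 5.97.

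In the comparison of cdf2 with Col, miR395b, miR395c and miR395f, with 69 reads each in cdf2 and 37 in Col, rose 1.74-fold by total reads (interval 1.15 to 2.66), a fold change that was 0.988 when genome-matched reads were the scale. On the log2 scale the rise by total reads was 0.79, with an adjusted p of 0.0131 by two-sided Fisher's exact test. The p-values were adjusted by the Benjamini-Hochberg method over all 230 miRNAs that had 10 or more reads in cdf2 and Col together. This test compares the reads of 2 libraries and not the genotypes. miR395a and miR395d had a fold change of 1.53 (0.906 to 2.62, log2 0.61, adjusted p = 0.164 by the same exact test), and miR395e of 1.49 (0.881 to 2.56, log2 0.57, adjusted p = 0.198 by the same exact test), so neither passed. At the depth of these libraries, miR395a, with 25 reads in Col, would have needed 47 reads in cdf2 to be called, which is 1.75-fold, where 41 were counted and 26.9 correspond to an equal RPM. For miR395b, with 37 reads in Col, 63 would have sufficed and 69 were counted.

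Among all 230 miRNAs tested, 15.2% were higher in cdf2 by at least 1.5-fold and 8.26% also had an adjusted p under 0.05 in Fisher's exact test. In the miR395 family, 5 of 6 members reached 1.5-fold (all but miR395e, at 1.49) and 3 of 6 passed the test as well, but these are 2 measurements and not 6. Lower values were more frequent in cdf2 by total reads, but by summed miRNA reads 100 miRNAs were higher and 16 lower by at least 1.5-fold. By total reads, 37.0% were lower by at least 1.5-fold and 27.8% had the adjusted p as well, and no miR395 member was among them. The median log2 fold change was 0.70 over the 6 members and -0.40 over all miRNAs tested. 89.1% of the miRNAs had a lower fold change than miR395b, and 84.8% had a lower one than miR395a.

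The direction of this difference depended on the total used as the scale. With the genome-matched reads that the study also states, the fold change was 0.869 (0.516 to 1.49) for miR395a and miR395d and 0.988 (0.654 to 1.52) for miR395b, c and f, and neither passed the test. What these reads count is not known: in Col the miRNA counts, with only the largest member of each family taken, sum to 2.02 times their number, against 0.65 times in cdf2, so in Col they cannot be a total that includes the miRNA reads. With the other 4 scales, fold changes were 1.6 to 2.76 for miR395a and miR395d and 1.82 to 3.14 for b, c and f. The position among the fold changes of all miRNAs tested does not depend on the scale. Set against the median fold change of the 230 miRNAs tested, that of miR395a and miR395d was 2.02 times as high. The fold change of miR395e was 1.97 times the median, and that of miR395b, c and f was 2.29 times. With an assumed coefficient of variation of 0.2 between libraries, in edgeR's exact test, the adjusted p of miR395b, c and f was 0.352.

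**Figure D3:**
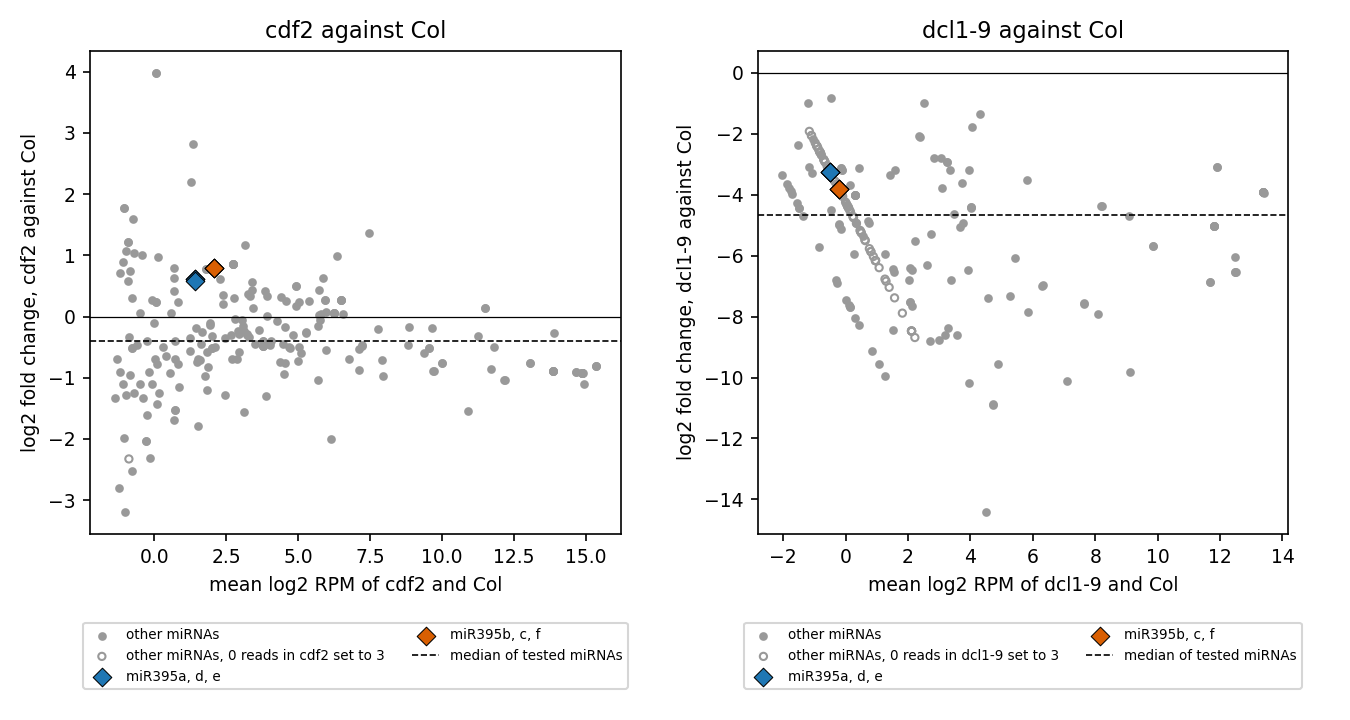
Log2 fold change of cdf2 against Col (left, 230 miRNAs) and of dcl1-9 against Col (right, 204 miRNAs) on the total-read scale, plotted against the mean log2 RPM of the pair. The miR395 members (diamonds) lie above the median of -0.40 on the left, at 0.57 to 0.79. On the right, miR395b, c and f lie at -3.81, above the median of -4.67, but with 3 reads in dcl1-9 their counting interval includes that median. The median itself depends on the 3 reads given to counts of 0. miR395a, d and e have 0 reads in dcl1-9 and are drawn at 3 reads, so that their place relative to the median is not known.

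miRNAs with few reads in Col gave a like-for-like background, in a range of 20 to 50 Col reads that was chosen after values were seen. Of the 25 such miRNAs outside the family, 3 were higher by at least 1.5-fold in cdf2, 13 were lower and 9 lay between. Their median log2 fold change was -0.69, with a range of -2.31 to 0.77. The value of miR395b (0.79) was just above this range on the total-read scale and that of miR395a (0.61) was inside it. The place of miR395b depends on where the window of Col reads ends, since miR854a, with 57 Col reads, was at 0.86. Some of the 25 have identical counts (miR2933a and b, miR2111a and b), so that they are fewer than 25 measurements.

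In dcl1-9, miR395a, miR395d and miR395e had no reads. With the 0 set to the floor of 3 reads, they were 9.49-fold lower than in Col by total reads, which is not a bound. The upper end of the 95% interval of the fold change was 0.14, a smaller fall (adjusted p = 7.08e-09 by Fisher's exact test over 204 miRNAs). miR395b, miR395c and miR395f, with 3 reads in dcl1-9 and 37 in Col, fell to 0.0712 of the Col level (interval 0.014 to 0.225, log2 -3.81, adjusted p = 1.78e-09 by the same exact test). All 6 members passed the test, as did 99.0% of the 204 miRNAs tested, and 100% of them were lower by at least 1.5-fold. For miRNAs with 0 reads in dcl1-9, miR395a, d and e among them, this direction was fixed in advance. They entered the test only through 10 or more Col reads, and the floor of 3 reads is then lower by at least 1.5-fold. With at least 10 reads in each library, 62 miRNAs were lower by at least 1.5-fold and, as a part of the 204, none was higher. By total reads, a fall in dcl1-9 was thus not particular to miR395. The median log2 fold change of all 204, with counts of 0 set to 3 reads, was -4.67, a fold change of 0.0392. This median depends on the floor, since miRNAs with 0 reads that lie above it at 3 reads could lie below it. The fold change of miR395b, at log2 -3.81, was 1.82 times as high as that median. It rests on 3 reads, and its interval of 0.014 to 0.225 includes the median, so a smaller fall than the median at this floor was not distinguished. Scaled by the summed miRNA reads, by DESeq2 size factors or by TMM, the fold change of miR395b was 1.89, 2.12 or 2.95, with a 95% interval that included 1 in each case.

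Of the 25 miRNAs with 20 to 50 Col reads, 14 had no reads in dcl1-9 and 19 had at most 3. If miR395a, d and e had fallen as b, c and f did, 2.03 reads would correspond to that level in dcl1-9. A difference between the variants in dcl1-9 was therefore not detectable at this depth.

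**Figure D4:**
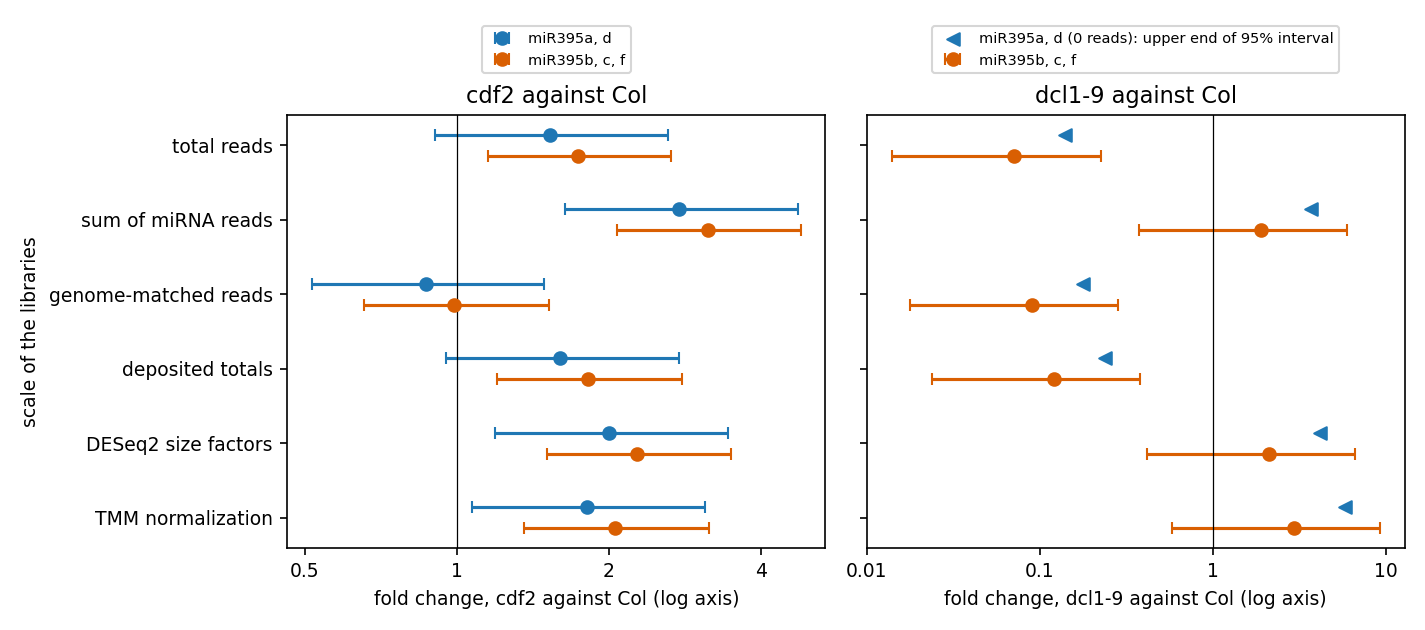
Fold change of the miR395 variants in cdf2 (left) and dcl1-9 (right) against Col under the 6 scales (log axes), with 95% counting intervals. In cdf2 the values run from 0.869 to 2.76 for miR395a and d and from 0.988 to 3.14 for miR395b, c and f, with genome-matched reads as the scale that puts both below 1; in dcl1-9 the arrowheads mark the upper end of the interval for 0 reads, and 3 of the 6 scales put miR395b, c and f above 1.

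The ratio of the variants within a library needs no scale. miR395b, c and f had 1.68 reads for each read of miR395a, d and e in cdf2 (69 to 41, interval 1.13 to 2.54) and 1.48 in Col (37 to 25, 0.867 to 2.56). The b, c, f variant thus made up 62.7% of the reads of both variants in cdf2 (53 to 71.8%) and 59.7% in Col (46.4 to 71.9%), and in Col the interval includes equal amounts. In dcl1-9 it was 3 of 3 reads, for which the lower limit is 29.2%. The ratio in cdf2 was 1.14 times that in Col, with an interval of 0.57 to 2.25. The larger fold change of b, c and f in cdf2 against Col (1.74, against 1.53 for a and d) was thus not distinguished from that of a, d and e. These intervals take every read as counted for 1 variant only, which holds for perfect matches that cover position 17.

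The base at which the variants differ also bears on their pairing with the known targets. All 52059 mRNAs of 31346 genes in the RefSeq annotation were searched for sites of 21 bases, without gaps, and positions that form no Watson-Crick pair were counted. At most 3 such positions were found in 8 genes for miR395a, d and e and in 3 genes for b, c and f. Besides APS1, APS3, APS4 and SULTR2;1, the 8 genes were AT1G50930, AT2G28780, AT4G23840 and LAC7, a laccase gene, and the 3 genes were APS4, AT1G50930 and AT2G28780. At most 2 were found in 3 genes for miR395a, d and e and in 1 gene for b, c and f. The best sites in the mRNAs of APS4, APS1, APS3 and SULTR2;1 are shown 5′ to 3′, with the bases that do not pair with miR395a, d and e in capitals.
APS4: gaguuccUccaaacacuucaU
APS1 and APS3: gaguuccUccaaacUcuucaU
SULTR2;1: AaguucUcccaaacacuucaA
The site of APS4 (minus strand, chr5:17591121-17591141), those of APS1 (plus strand, chr3:8113164-8113184) and APS3 (minus strand, chr4:8414958-8414978) and that of SULTR2;1 (plus strand, chr5:3193268-3193288) are all in the coding sequence of exon 1. APS4 had 2 positions without a Watson-Crick pair for miR395a, d and e and 3 for b, c and f. APS1, APS3 and SULTR2;1 had 3 for a, d and e and 4 for b, c and f. In all 4 mRNAs the base opposite position 17 is U, which forms a Watson-Crick pair with the A of miR395a, d and e and a G:U wobble with the G of b, c and f. The computed duplex energy was -34.30 kcal/mol with a, d and e and -33.80 kcal/mol with b, c and f for APS4. For SULTR2;1 it was -32.30 kcal/mol with a, d and e and -31.80 kcal/mol with b, c and f.

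APS2, the remaining ATP sulfurylase gene, had no site with fewer than 8 such positions for either variant. Of the other 2 genes with at most 2 positions, which carry no name in the annotation and were picked for this count, AT1G50930 had its site in the 5′ UTR of exon 1 and also has U opposite position 17. The site of AT2G28780 (minus strand, chr2:12341491-12341511, coding sequence of exon 3) was the only one with at most 2 such positions for b, c and f. It has G opposite position 17, which pairs with neither variant, and the same number of positions (2) for both. Its computed duplex energy was -31.60 kcal/mol with a, d and e and -34.20 kcal/mol with b, c and f, a larger difference than for APS4 and SULTR2;1 and in the other direction.
AT2G28780: gaguGccUccaaacacuucag
These matches describe the sequences only, since no mRNA level or cleavage was analysed here.

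**Figure D5:**
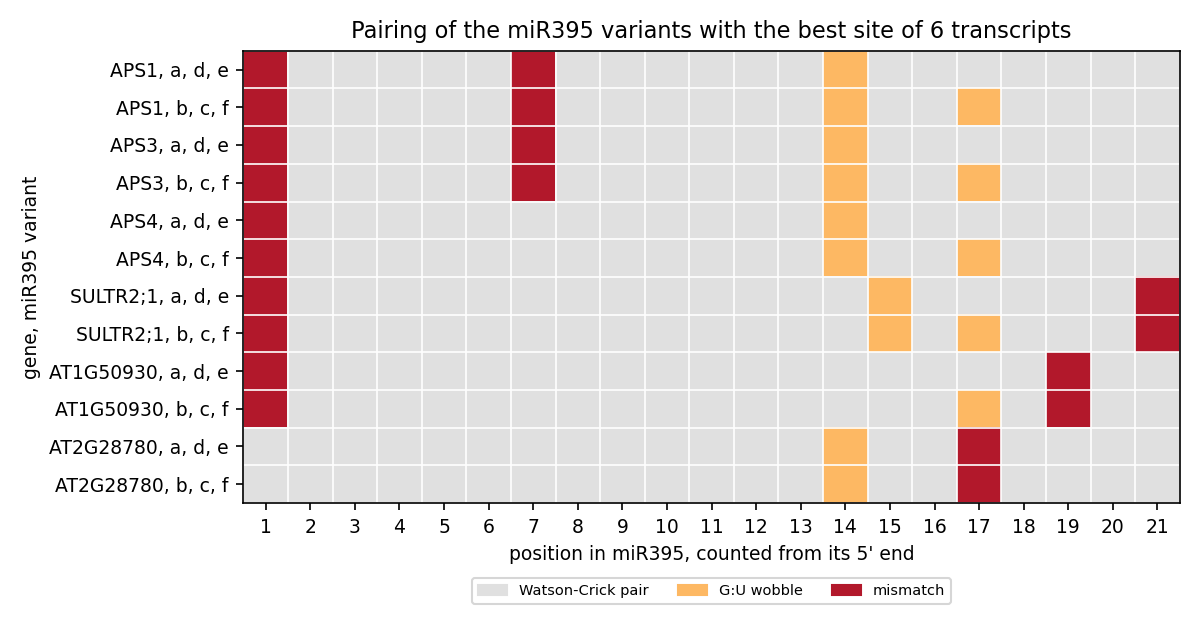
Pairing of each position of the 2 miR395 variants, counted from the 5′ end, with the best site in the mRNAs of APS1, APS3, APS4, SULTR2;1, AT1G50930 and AT2G28780 (grey for a Watson-Crick pair, orange for a G:U wobble, red for a mismatch). At position 17 the b, c, f variant forms a wobble in 5 of the 6 mRNAs where a, d, e forms a Watson-Crick pair, and both have a mismatch with AT2G28780.

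Other miRNAs known to respond to nutrients were set beside miR395, in a list of 19 names from the families of miR397, miR398, miR399, miR408, miR778, miR827, miR857 and miR2111, which respond to copper or phosphate. Of the 17 with enough reads, 2 were higher in cdf2 by at least 1.5-fold and 1 of them passed Fisher's exact test, 10 were lower and all 10 passed, and 5 lay between. Over all 230 miRNAs these shares were 15.2% higher (8.26% with the test) and 37.0% lower (27.8% with the test), and some of the 10 have identical counts (miR2111a and b, miR398b and c), so that they are fewer than 10 measurements. The median log2 fold change of the 17 was -1.20, against 0.70 for the miR395 members and -0.40 for all miRNAs tested. miR857, a copper-responsive miRNA that targets a laccase mRNA, had 166 reads in cdf2 and 69 in Col (2.24-fold, adjusted p = 2.28e-08 by Fisher's exact test). miR2111b*, with 10 reads in cdf2 and 4 in Col, did not pass (2.33-fold, adjusted p = 0.252 by the same exact test). miR408, also copper-responsive, had 343 reads in cdf2 and 482 in Col (0.662-fold by total reads, but 1.2-fold by summed miRNA reads). The phosphate-responsive miR827 had 29 reads in cdf2 and 62 in Col (0.435-fold), and miR399f, whose family targets the mRNA of the ubiquitin-conjugating enzyme PHO2, had 19 in cdf2 and 61 in Col (0.29-fold). Members of the same family with more reads fell less by total reads, with miR399b at 0.826-fold and miR399c at 0.843-fold (492 Col reads each). These 2 were among the 5 that lay between, with miR397a (1.35-fold), miR397b (1.33-fold) and miR2111a* (1.05-fold). miR2111a had 12 reads in cdf2 and 32 in Col (0.349-fold). In dcl1-9, all 15 members with enough reads were lower by total reads and passed the test, as 100% of all 204 miRNAs were lower and 99.0% passed, with a median log2 fold change of -4.56 that was above 0 by summed miRNA reads (0.17), size factors (0.34) and TMM (0.81). In cdf2 the median of the list was below 0 under all 6 scales, from -2.01 by genome-matched reads to -0.35 by summed miRNA reads.

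The families whose pattern over the 3 libraries was nearest to that of miR395 were found by the distance between log2 fold changes in cdf2 and dcl1-9 against Col. Each family was represented by its member with the most Col reads, and counts of 0 were set to 3 reads. In the 105 other families compared, that member had at least 10 Col reads and could be joined to a dcl1-9 name. Nearest were miR854a (distance 0.22) and miR5655 (0.22), then miR5653 (0.41), miR5635d (0.65) and miR2933a (0.67). miR854a had 111 reads in cdf2, 4 in dcl1-9 and 57 in Col. miR5655 had 74 reads in cdf2, 4 in dcl1-9 and 45 in Col, close to the 69, 3 and 37 of miR395b in number as well. miR5653 (log2 fold change 0.43 in cdf2 and -3.63 in dcl1-9) and miR5635d (0.63 in cdf2 and -3.18 in dcl1-9) had more reads, with 770 in cdf2, 49 in dcl1-9 and 533 in Col for miR5653, and 901 in cdf2, 68 in dcl1-9 and 542 in Col for miR5635d. miR2933a had 57 reads in cdf2, 4 in dcl1-9 and 31 in Col. The comparison rests on 3 libraries, and both fold changes share the Col library. The dcl1-9 fold change of miR395b rests on 3 reads, with an interval of 0.014 to 0.225. This interval is too wide for the order of these families to be resolved.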

How the data were processed

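Small RNA libraries of the 3 genotypes were made and sequenced (Illumina) by the authors, who removed adaptors, matched reads to hairpins of miRBase 15 by Bowtie, and used miRNA database version 16 to count known miRNAs. Bowtie and TAIR10 are named in the submitters' processing notes, and the Bowtie version is not given in the sources used here. The deposited values are raw counts of reads per miRNA, with 1 file per library, and how the authors assigned reads shared by several members is not given. Each mutant also has a comparison table that holds, for a subset of miRNAs, counts, RPM, a library total and the authors' fold change and p-value; from it only the counts and the other deposited values, the library totals, were used.

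Total reads as the study states them (12349211 for cdf2, 13081202 for dcl1-9 and 11489298 for Col) were the scale. The dcl1-9 names were joined to those of Col for 308 miRNAs, 16 of them through a later name. miRNAs that reached 10 reads over the 2 libraries compared were tested with two-sided Fisher's exact tests (scipy 1.17.1) and Benjamini-Hochberg adjustment over all of them, and a call needed a 1.5-fold change and an adjusted p under 0.05. A count of 0 was set to 3 reads for folds. Fold and ratio intervals are exact conditional (Clopper-Pearson) and those of levels exact Poisson. The test was checked on simulated counts that held counting error and no variation between libraries, so this check does not cover such variation. Alternatives were other library totals, DESeq2 1.42.0 size factors, edgeR 4.0.16 TMM and exact tests with an assumed coefficient of variation of 0.2 or 0.4, 1 added read, other filters and summed members. Hairpins and duplexes were folded with ViennaRNA 2.7.2 on TAIR10.1 RefSeq sequence.

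The members and lists were chosen with earlier results of these data known. Of the nutrient-responsive miRNAs, up to 4 per direction by Col count were named, and the 5 that lay between in cdf2. Also named were the 6 members, the 5 families nearest in pattern, and the targets APS1, APS3, APS4 and SULTR2;1. APS2, AT1G50930, AT2G28780, AT4G23840 and LAC7 were added after the search.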

Additional observations from a re-analysis of the deposited data

How the results depend on the processing

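The fold changes of cdf2 against Col kept their direction under the deposited totals (1.6 for miR395a and d, 1.82 for b, c and f). For miR395a and d they passed the test with the summed miRNA reads (2.76), DESeq2 size factors (2), TMM (1.81) and the sum over members (1.51), which counts shared reads several times. With genome-matched reads they were 0.869 for miR395a and d, 0.848 for miR395e and 0.988 for miR395b, c and f. For b, c and f the fold change of 1.74 did not pass edgeR's exact test with an assumed coefficient of variation of 0.2 (adjusted p = 0.352) or 0.4 (0.961). In dcl1-9, the 0 reads of miR395a, d and e, set to 3, give a fold change of 2.8 with summed miRNA reads, 3.13 with size factors and 4.36 with TMM (upper ends of the intervals 3.71, 4.15 and 5.78), which has no direction, and b, c and f came to 1.89, 2.12 and 2.95. The scales shifted the median log2 fold change of all miRNAs tested by 0.86 (summed miRNA reads), -0.81 (genome-matched reads), 0.07 (deposited totals), 0.39 (size factors) and 0.25 (TMM) in cdf2, and by 4.73, 0.34, 0.76, 4.89 and 5.37 in dcl1-9.

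The number of miRNAs higher in cdf2 by at least 1.5-fold was 35 by total reads, 100 by summed miRNA reads, 7 by genome-matched reads, 65 by size factors, 53 without a filter and 21 with at least 10 reads in each library. The number lower was 85, against 16, 166 and 33 by summed miRNA reads, genome-matched reads and size factors. In dcl1-9, 204 were lower, against 78, 77 and 67 by summed miRNA reads, size factors and TMM, and 62 with at least 10 reads in each library. Which total fits these libraries was not tested. No paired analysis was possible because there was 1 library per genotype.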
